A study of Mus musculus with 54 samples.

Results

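Kit, its ligand Kitl and 8 further genes that mark or control spermatogonia (Zbtb16, Gfra1, Sall4, Nanos3, Uchl1, Sohlh1, Sohlh2 and Dmrt1) were followed through the testes of 4 mouse genotypes. The 10 genes were taken by symbol from the count matrices of whole testis and of purified germ cells, and all 10 were among the 23284 genes of both. The mice were C57BL/6 males of 3 months: wild type (WT), Ctcf+/- (CTCF HET), Boris-/- (BORIS KO) and the compound mutant Ctcf+/-Boris-/- (CM, labelled DKO). CTCF is a ubiquitous zinc finger protein that binds DNA and organizes chromatin, and BORIS (gene Ctcfl) is its paralog of the male germ line. Each RNA library came from a germ cell-enriched preparation pooled from 4 mice, with 3 independent preparations per genotype, so the library and not the mouse was the replicate. Whole testis here means such an enriched preparation. Round spermatids and spermatocytes were separated further by elutriation and cell sorting, with 3 libraries per genotype except 2 for WT spermatocytes. Peak lists of CTCF, BORIS, RNA polymerase II (Pol2) and H3K4me3 from testis, 1 list per antibody and genotype, covered WT and CM, with BORIS in WT alone.

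KIT is a receptor tyrosine kinase, and the membrane-bound or shed KIT ligand encoded by Kitl activates it. In the adult testis Sertoli cells make the ligand, and differentiating spermatogonia and Leydig cells carry the receptor. Stem and progenitor spermatogonia express Zbtb16 (PLZF, a transcriptional repressor), Gfra1 (the co-receptor for GDNF), Sall4 (a zinc finger factor of stem cells), Nanos3 (an RNA-binding repressor of translation) and Uchl1 (a ubiquitin hydrolase). Sohlh1 and Sohlh2 are helix-loop-helix factors needed for spermatogonial differentiation, and Dmrt1 is a DM-domain factor that acts in spermatogonia and Sertoli cells. Spermatids are known to make a truncated Kit transcript from a start inside the gene. The counts are per gene and hold both forms of Kit.

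The depth was 10437683 to 42055813 counts per library for whole testis, while spermatocyte libraries had 53337530 to 88946702 and round spermatid libraries 47740650 to 98545423. Levels are given as CPM, the counts of a gene scaled to the effective size of its library. Ctcf in whole testis stood at 45.1, 40.9 and 42.1 CPM in WT, at 27.7, 30.3 and 22.9 CPM in CTCF HET and at 26.4, 26.8 and 24.3 CPM in CM. In round spermatids the libraries labelled CM held Ctcf at 177, 47.9 and 39.8 CPM against 29.6 to 49.6 CPM in WT, and in spermatocytes at 83.6, 33.1 and 32.4 CPM against 33.8 and 32 CPM, which goes against a heterozygous label. The spermatocyte libraries labelled CTCF HET, at 42.8, 50.5 and 31.3 CPM, were not below WT either. Ctcfl in whole testis was at 0.509 to 0.711 CPM in WT and 0.122 to 0.401 CPM in BORIS KO and CM, and counts per gene do not show whether the remaining reads lie outside the deleted part. In round spermatids Ctcfl was at 2.9 to 5.11 CPM in WT, 2.12 to 2.46 CPM in BORIS KO and 1.11 to 2.63 CPM in the libraries labelled CM. In spermatocytes it had 6 and 5 counts in WT and at most 8 in BORIS KO, but 29 in the second library labelled CM. The libraries labelled CM in round spermatids also stood apart from one another: chi-square per degree of freedom between the closest pair was 192, against 9.07 to 13.9 for the other 3 genotypes. Those 3 libraries had counts for 14932 to 16670 genes, against 17504 to 18978 in the other genotypes, and the CTCF HET spermatocyte libraries had counts for 12018 to 13406 genes. All 11 round spermatid markers tested were higher in WT round spermatids than in WT spermatocytes, with a median log2 fold change of 4.76, while the summed spermatocyte markers were 7229 to 7692 CPM in WT round spermatids and 11126 to 11803 CPM in WT spermatocytes.

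Kit (ENSMUSG00000005672; chr5:75970941-76052747, plus strand, mm9) was the member that differed most from WT in CM whole testis. Its level was 31, 35.3 and 16.2 CPM in the WT libraries and 60.2, 26.7 and 20.9 CPM in CTCF HET. It was 46.8, 49.3 and 72 CPM in BORIS KO and 348, 76.7 and 185 CPM in CM. Every BORIS KO and CM library lay above every WT library, CTCF HET overlapped WT, and the CM libraries spread over a wide range (203 ± 137 CPM, SD, n = 3). Over all genes tested, every library lay above WT for 13.4% in BORIS KO and 26.2% in CM. The log2 fold change in CM against WT was 2.86 ± 0.53 (SE), which is 7.28-fold, with an adjusted p of 0.0159 in edgeR's quasi-likelihood test; a gene was called at an adjusted p under 0.05. In this comparison 25.2% of the genes tested were called, 16.4% as higher and the rest as lower, and 3 of the 10 members were called, all 3 as higher. The call of Kit was lost without WT replicate 2 (adjusted p = 0.0667), without WT replicate 3 (0.0605) or without CM replicate 3 (0.0572), while the log2 fold change stayed between 2.28 and 3.32.

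Kitl (chr10:99478264-99563047, plus strand), the ligand, moved with its receptor in CM whole testis. Its level was 10.8, 8.28 and 6.05 CPM in WT, 9.17, 6.66 and 7.41 CPM in CTCF HET, 12, 10.3 and 13.6 CPM in BORIS KO and 38.4, 15.5 and 27.8 CPM in CM. All 3 CM libraries were above all libraries of the other genotypes. The log2 fold change against WT was 1.68 ± 0.37, or 3.2-fold, with an adjusted p of 0.0189. Zbtb16 (chr9:48462416-48644050, minus strand), the marker of undifferentiated spermatogonia, was at 2.55, 3.18 and 1.87 CPM in WT, 3.26, 3.48 and 3.76 CPM in CTCF HET, 5.21, 5.94 and 8.7 CPM in BORIS KO and 25.7, 6.22 and 14.1 CPM in CM. Its CM libraries lay above WT but one of them overlapped BORIS KO. The log2 fold change against WT was 2.57 ± 0.50, or 5.96-fold, with an adjusted p of 0.0165. For both genes the call was lost without the same 3 libraries, at adjusted p values of 0.0738, 0.071 and 0.0594 for Kitl and 0.0667, 0.0641 and 0.0572 for Zbtb16. In all 3 genes CM replicate 1 was the highest library and CM replicate 2 the lowest of that genotype.

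The other 7 members were not called in CM whole testis, and their log2 fold changes ran from -0.49 (Sohlh1) to 0.88 (Sall4). Sall4 was at 0.622, 1.13 and 1.24 CPM in WT and 2.13, 1.89 and 1.26 CPM in CM, with an adjusted p of 0.137. Gfra1, which marks stem cells as Zbtb16 does, was at 3.59, 4.24 and 4.27 CPM in WT and 3.31, 3.84 and 1.97 CPM in CM, so the groups overlapped and the estimate was below 0. Uchl1 (16.7 to 27.3 CPM in CM against 17.6 to 24.6 in WT), Sohlh2 (5.59 to 6.34 against 5.57 to 6.49) and Dmrt1 (4.36 to 7.63 against 3.85 to 6.31) overlapped in the same way, as did Nanos3 and Sohlh1. The median log2 fold change of the 10 members was 0.12, beside 0.00 over all genes tested. A further list of undifferentiated spermatogonial genes, none of them a member, had 12 of 20 tested, of which 3 were higher and 2 lower. Of these, Ret (the GDNF receptor kinase) was 2.83-fold higher and Etv5 (a GDNF-responsive factor) 2.04-fold higher, while Bmi1, a Polycomb subunit, was at -1.23 ± 0.23 and Lhx1 at -1.74 ± 0.43 on the log2 scale. The summed level of that list was lower in CM (146 to 168 CPM) than in WT (201 to 227 CPM). Bmi1 alone was at 155 ± 11.6 CPM in WT and 66.9 ± 10.6 CPM in CM (SD), so the sum mainly follows that gene. The median log2 fold change of the 12 genes tested was 0.22, beside 0.00 over all genes. Of 11 differentiating spermatogonial genes tested, Ccnd2, a D-type cyclin, was higher at 2.99 ± 0.43, and Rarb and Dmrtb1 were lower at -2.36 ± 0.44 and -0.90 ± 0.24. The median of the 11 was 0.36, while the sum was 1185 to 1209.5 CPM in WT and 699.7 to 939 CPM in CM. Dmrtb1 alone had a mean of 596 CPM in WT and 322 CPM in CM.

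**Figure D1:**
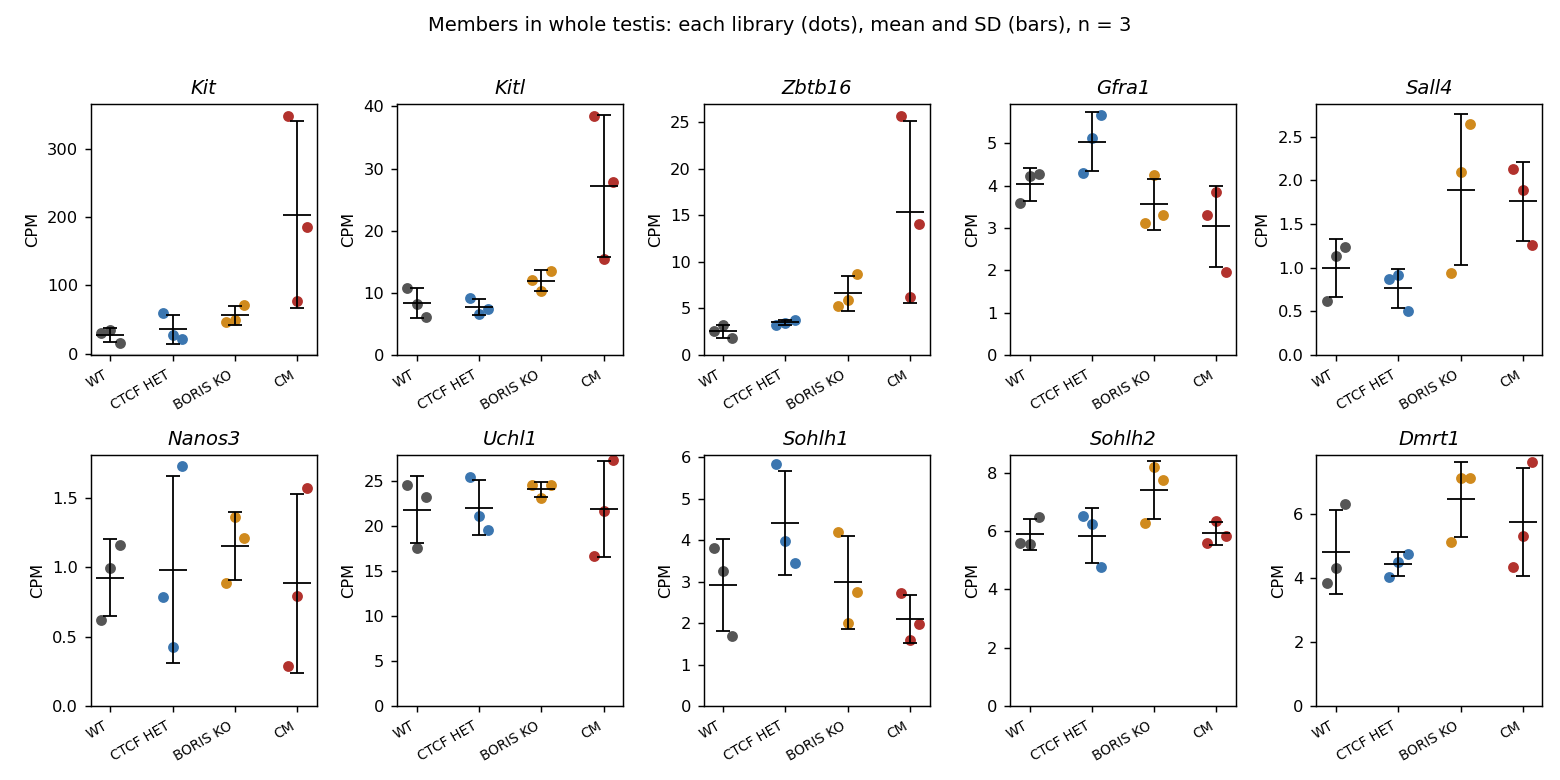
Level of each member in whole testis in CPM, 1 dot per library, with the mean and SD of 3 libraries per genotype. Kit reached 348 CPM in CM against at most 35.3 CPM in WT, Kitl 38.4 against 10.8 and Zbtb16 25.7 against 3.18, while the CM and WT libraries of Gfra1, Nanos3, Uchl1, Sohlh1, Sohlh2 and Dmrt1 overlapped.

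Markers of somatic cells moved in the same whole testis libraries. Of 8 Leydig cell markers 6 were called higher in CM and none lower, among them Cyp17a1 (a steroid hydroxylase) at 6.52-fold and Cyp11a1 (the side-chain cleavage enzyme) at 5.83-fold. Their summed level was 386 to 645 CPM in WT libraries, and CTCF HET overlapped that range (475 to 849.7 CPM). BORIS KO (760.1 to 1532 CPM) and CM (1938 to 3962 CPM) lay above it, as they did for Kit. Of 13 Sertoli cell markers 6 were called higher and none lower, with Trf (transferrin) at 4.48-fold and Sox9 at 2.61-fold, and the sum ran from 311 to 496 CPM in WT and 768 to 1589 in CM. Of 9 macrophage markers 7 were called higher, with Csf1r at 4.4-fold, though their summed level overlapped (512 to 699.9 CPM in WT and 563 to 811 in CM). Other somatic lists were mixed. Of 6 peritubular myoid markers Des was called higher and Actg2, a smooth muscle actin, 4-fold lower. Their sum was 327 to 350.1 CPM in WT and 78 to 120.4 CPM in CM, and Actg2 alone had means of 322 and 81.4 CPM. Of 6 endothelial markers Cdh5 was called higher and Vwf lower (-1.01 ± 0.31). The median log2 fold changes of these lists were 0.50 (myoid) and 0.53 (endothelial), beside 0.00 over all genes. Mast cells, another KIT-bearing type, were near 0: the 6 markers summed to 0.726 to 1.18 CPM in CM and none was tested. Of 13 spermatocyte and 11 round spermatid markers none was higher, and 4 and 5 were lower. The summed round spermatid markers were 14061 to 21839.9 CPM in WT and 4226 to 12357 CPM in CM. Within each library Kit was 4.19% to 6.4% of the summed Leydig markers in WT and 3.96% to 9.62% in CM, and Kitl was 1.62% to 2.66% of the summed Sertoli markers in WT and 2.02% to 2.43% in CM, so both ratios overlapped between the genotypes, while Kitl as a share of the Leydig sum was 1.5% to 1.67% in WT and 0.701% to 1.06% in CM. Kit as a share of the Sertoli sum was 4.35% to 11.4% in WT and 9.99% to 21.9% in CM. The part of these cells in the levels of Kit, Kitl and Zbtb16 was not tested, and in tissue RNA a change in the number of cells of a type and a change in RNA per cell cannot be told apart.

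**Figure D2:**
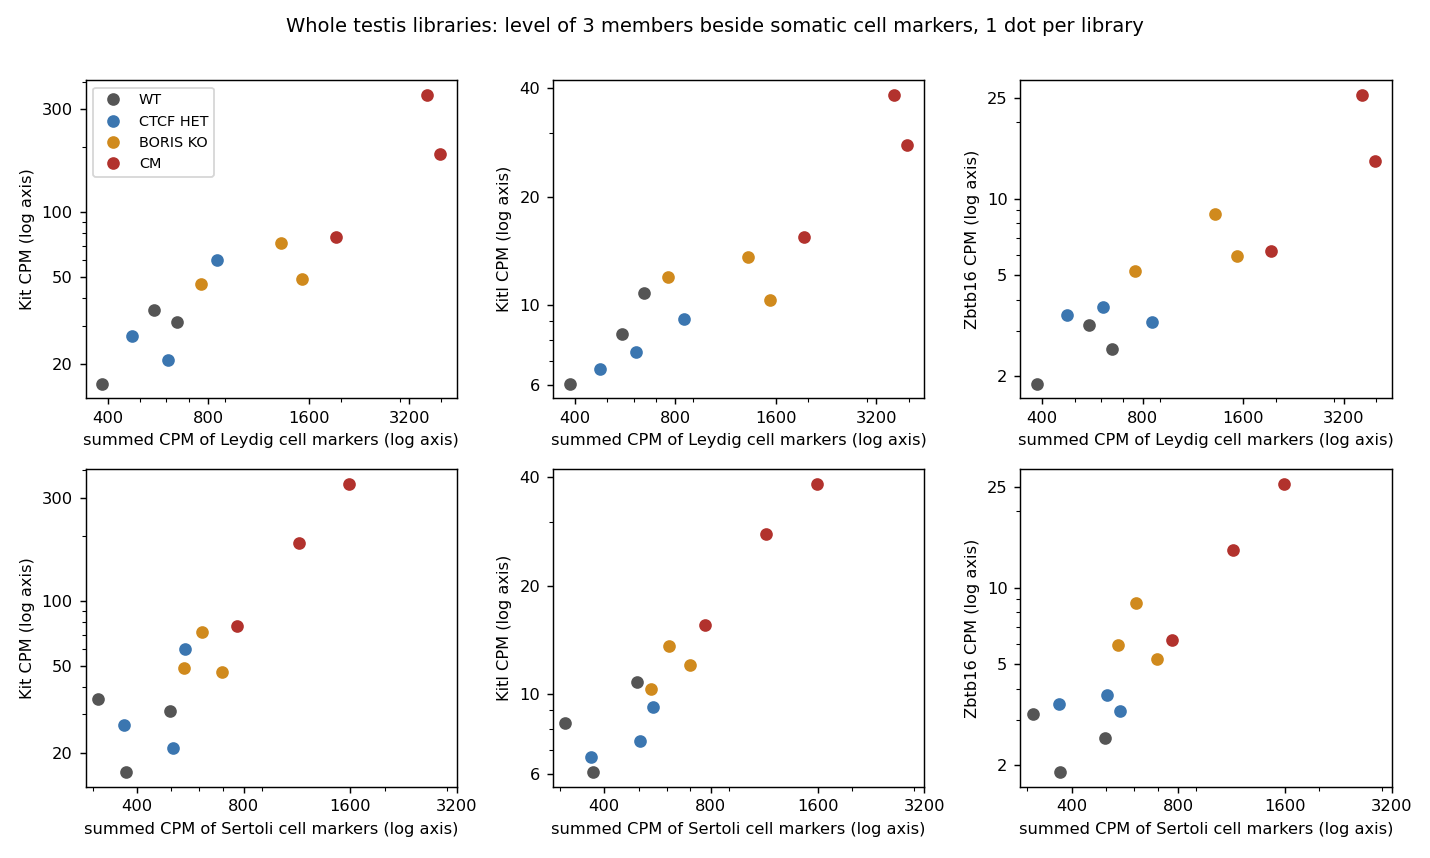
Kit, Kitl and Zbtb16 (CPM) in the 12 whole testis libraries beside the summed CPM of 8 Leydig cell markers (upper row) and 13 Sertoli cell markers (lower row), both axes logarithmic, 1 dot per library. The 3 CM libraries had the highest Leydig sums (1938 to 3962) and Sertoli sums (768 to 1589) and the highest Kit and Kitl, and BORIS KO libraries lay between CM and WT in the Leydig sums.

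The genes downstream of the receptor were read from a list of 49 KIT signalling genes that also holds Kitl. All 47 in the table were tested in CM whole testis, 16 were called higher and 2 lower, and 29 were not called. Their median log2 fold change was 0.63, beside 0.00 over all genes, and the summed level of the list overlapped between genotypes (1437 to 1792 CPM in CM). The 4 with the smallest p were Grb2, the adaptor that links the receptor to RAS, at 1.98 ± 0.28, Jak2, a kinase, at 1.72 ± 0.29, Stat5b, a transcription factor, at 1.73 ± 0.34 and Spred1, an inhibitor of RAS signalling, at 1.53 ± 0.31 on the log2 scale. The share called higher, 16 of 47, stands beside 16.4% of all genes, and the same genes are expressed in many cell types, including those whose markers moved.

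Kit, Kitl and Zbtb16 differed less from WT in either single mutant than in CM, while Sall4 (0.97 ± 0.49), Dmrt1 (0.45 ± 0.28) and Sohlh2 (0.34 ± 0.21) had larger log2 estimates in BORIS KO than in CM, none of them called. In CTCF HET whole testis edgeR called none of the 10 members, none had an unadjusted p under 0.05, DESeq2 called none, and 0.00621% of all genes were called. In BORIS KO whole testis edgeR also called none, beside 0.0551% of all genes, while Kit and Zbtb16 had an unadjusted p under 0.05 and DESeq2 called Zbtb16. Kit was 2.06-fold higher there (log2 1.04 ± 0.30, adjusted p = 0.214) and Zbtb16 2.62-fold (1.39 ± 0.30, adjusted p = 0.192). For both, all 3 BORIS KO libraries lay above all WT libraries, as they did for 13.4% of all genes tested. Whole testis libraries of the same replicate number deviated together, and with the replicate number as a block Zbtb16 was called in BORIS KO (1.34, adjusted p = 0.0329; 6.59% of all genes called).

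CM was also set against each single mutant, which share no libraries with one another but share the CM libraries. Against CTCF HET the same 3 genes were called, beside 15.5% of all genes and 10.6% called higher: Kit at 2.47 ± 0.57 (adjusted p = 0.0269), Kitl at 1.79 ± 0.36 (0.0237) and Zbtb16 at 2.12 ± 0.48 (0.0259). The 3 calls were lost without CTCF HET replicate 2, CTCF HET replicate 3 or CM replicate 3, and that of Zbtb16 also without CTCF HET replicate 1 (adjusted p = 0.0588). In the paired fit, with 43% of all genes called, Sall4 joined them at 1.19 (adjusted p = 0.0221) and Sohlh1 at -1.10 (0.00985). Sall4 passed the filter on low counts only through the CM libraries, so its call is no support for a difference. Against BORIS KO edgeR called no member and 0.006% of all genes, although 3 members had an unadjusted p under 0.05 and DESeq2 called Kit and Kitl. Kit differed by 1.82 ± 0.48 (adjusted p = 0.144), Kitl by 1.15 ± 0.33 (0.146) and Zbtb16 by 1.18 ± 0.47 (0.198). With the replicate block Kit (1.59, adjusted p = 0.037) and Kitl (1.08, 0.0402) were called, beside 7.36% of all genes. Without CM replicate 2 all 3 were called, at adjusted p values of 0.0312, 0.0324 and 0.0434.

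The departure of CM from the sum of the single mutants on the log2 scale was tested over all 4 genotypes. In whole testis edgeR and DESeq2 called none of the 10 members and edgeR 0% of all genes, with 1713 genes at an unadjusted p under 0.05. Kitl was the 1 member among those, at 1.31 ± 0.45 (adjusted p = 0.473), and Kit stood at 1.47 ± 0.71 (adjusted p = 0.508). More than additive change of Kit, Kitl or Zbtb16 was therefore not shown in whole testis by this fit, which had no replicate block.

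**Figure D3:**
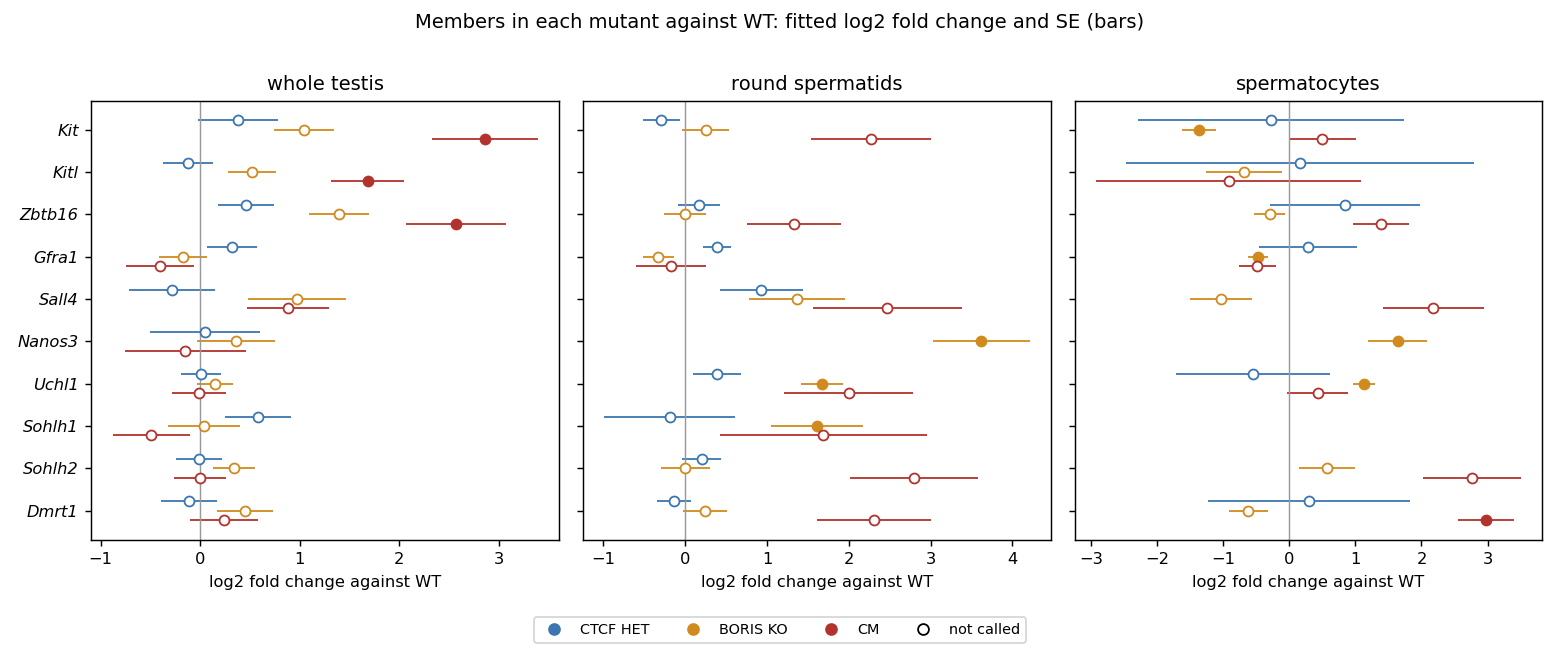
Fitted log2 fold change of each member against WT in CTCF HET, BORIS KO and CM, with bars of 1 SE, in the 3 preparations; filled points were called at an adjusted p under 0.05 and missing points were not tested. In whole testis Kit (2.86), Kitl (1.68) and Zbtb16 (2.57) are the filled CM points; the CM points of round spermatids lie to the right of 0 for most members and have wide bars.

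Levels were compared between genes only after division by exon length (TPM, over the union of annotated exons). In WT whole testis Uchl1 was the highest member at 36.9 ± 5.45 TPM (SD, n = 3), then Kit at 9.14 ± 3.32 and Sohlh2 at 4.85 ± 0.557. Sohlh1 (4.37 ± 1.54), Dmrt1 (3.63 ± 1.09), Kitl (2.77 ± 0.683) and Nanos3 (2.48 ± 0.811) followed, each overlapping its neighbour in that order. Gfra1 (1.44 ± 0.192), Zbtb16 (0.965 ± 0.259) and Sall4 (0.353 ± 0.128) were the lowest. In CM whole testis Kit was first at 73.5 ± 47.7 TPM, with a range of 28.3 to 123 that overlapped that of Uchl1, 30.1 to 51.7. In WT round spermatids Dmrt1 was first at 9.3 ± 0.956 TPM, above the range of Uchl1 (3.31 ± 0.76) and Sohlh2 (2.61 ± 0.656), and in WT spermatocytes Uchl1 (3.32 ± 0.425, n = 2) and Gfra1 (1.44 ± 0.14) were first.

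In purified WT germ cells most members were low. Kit was at 3.62, 4.87 and 5.41 CPM in WT round spermatids and at 0.607 and 0.687 CPM in WT spermatocytes. Dmrt1 was at 10.6, 8.81 and 8.93 CPM in round spermatids and 0.468 and 0.483 in spermatocytes, and Sohlh2 at 1.9, 3.04 and 2.29 against 0.0885 and 0.165. The groups were far apart for Kit and Dmrt1, with the higher level in round spermatids. Sohlh2 was higher there too, but its spermatocyte levels rest on few counts. The log2 fold change of round spermatids over spermatocytes was 2.80 ± 0.29 for Kit (adjusted p = 9.27e-05), 4.27 ± 0.21 for Dmrt1 (2.11e-06) and 4.19 ± 0.44 for Sohlh2 (0.000103). Zbtb16 was called as well at 1.29 ± 0.32 (adjusted p = 0.00839), and Sohlh1, with 21, 2 and 11 counts against 2 and 0, had an adjusted p of 0.0481. Sohlh2 had 7 and 13 counts in the WT spermatocyte libraries. Sohlh1 and Sohlh2 passed the filter on low counts only through the round spermatid libraries, so their calls are no support for a difference. Of 9 tested members 5 were called, all higher in round spermatids, beside 70% of all genes called and 35.8% called higher; the calls of Zbtb16 and Sohlh1 were lost without either WT spermatocyte replicate. Kitl was at most 0.24 CPM in either WT cell type, and Uchl1 and Gfra1 differed by 0.14 ± 0.29 and -0.03 ± 0.21 on the log2 scale and were not called. Somatic markers differed between the cell types in both directions. The Leydig markers summed to 1.16 to 1.56 CPM in WT round spermatids and 9.25 to 9.88 in WT spermatocytes, most of it Star, with Cyp11a1 at 0. Macrophage markers summed to 86 to 97.9 CPM in WT round spermatids and 3.05 to 3.44 CPM in WT spermatocytes. Of 8 tested 4 were called higher and 1 lower. Csf1r was at only 0.149 to 0.641 CPM in WT round spermatids, so other genes of the macrophage list made up most of its sum. Peritubular myoid markers summed to 40.2 to 49.9 CPM in WT round spermatids and 8.3 to 9.27 CPM in WT spermatocytes. The macrophage and myoid sums were higher in round spermatids, as Kit and Dmrt1 were, and their part in those differences was not tested.

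In round spermatids of BORIS KO the members called were Nanos3, Uchl1 and Sohlh1, all higher. Nanos3 had 2, 1 and 4 counts in the WT libraries and 38, 32 and 43 in BORIS KO, a log2 fold change of 3.62 ± 0.59 (adjusted p = 0.000816). Uchl1 was at 1.87, 1.33 and 1.25 CPM in WT and 3.64, 4.52 and 6.43 CPM in BORIS KO (1.67 ± 0.26, adjusted p = 0.000667). Sohlh1 went from 0.241, 0.0428 and 0.215 CPM to 0.37, 0.533 and 0.721 CPM (1.61 ± 0.56, adjusted p = 0.0354). No BORIS KO library overlapped WT in any of the 3 genes, while over all genes tested 32.5% lay wholly above WT and 31.3% wholly below. These 3 of 9 tested stand beside 55.8% of all genes called in that comparison. Nanos3 and Sohlh1 passed the filter on low counts only through their BORIS KO libraries, so their calls are no support for a difference. When all 4 genotypes entered one fit none of the 3 was called (adjusted p = 0.0835, 0.0601 and 0.228), and leaving out WT replicate 2 or 3 or any BORIS KO replicate ended the call of Sohlh1. Kit (0.25 ± 0.29), Dmrt1 (0.24 ± 0.27), Zbtb16 (0.00 ± 0.26) and Sohlh2 (-0.00 ± 0.30) were not called, and neither was Sall4 (1.37 ± 0.59, adjusted p = 0.0754). In CTCF HET round spermatids edgeR and DESeq2 called none of 8 tested members beside 22.3% of all genes called by edgeR, with only Gfra1 at an unadjusted p under 0.05 (0.39 ± 0.17).

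The libraries labelled CM gave round spermatid levels that spread widely for several members together. Kit was at 5.36, 45 and 13.4 CPM, Dmrt1 at 13.7, 96.5 and 22.5 CPM and Sohlh2 at 3.49, 33.8 and 10.5 CPM. Replicate 2 was the highest library for each, and for Uchl1 (2.51, 12.7 and 1.63 CPM), Sohlh1, Sall4 and Zbtb16 too. For Kit replicate 1 lay inside the WT range, and for Dmrt1 and Sohlh2 all 3 libraries were above WT, as for 12.3% of all genes tested. edgeR called none of the 8 tested members, with 0.00654% of all genes called and 6 of the 8 at an unadjusted p under 0.05, and DESeq2 called Kit, Sohlh2 and Dmrt1. The edgeR log2 fold changes were 2.27 ± 0.73 for Kit (adjusted p = 0.179), 2.31 ± 0.70 for Dmrt1 (0.174) and 2.80 ± 0.78 for Sohlh2 (0.169), and without replicate 1, the library with Ctcf at 177 CPM, these were 2.76, 2.76 and 3.30 and were called (0.0446, 0.0475 and 0.0435). Without replicate 2 they were 1.04, 0.95 and 1.56 and were not called (adjusted p = 0.24, 0.137 and 0.166), and without replicates 2 and 3 together they were 0.22, 0.55 and 0.55. The median over the 8 was 2.14 beside 0.00 over all genes. Leydig markers summed to 1.02 to 1.83 CPM in these libraries and Sertoli markers to 4.23 to 20.6 CPM, against 6.61 to 8.94 CPM in WT. The summed round spermatid markers were 958 to 1269 CPM against 1907 to 2087 CPM in WT. Macrophage markers summed to 25.9 to 57.7 against 86 to 97.9 CPM, with Csf1r at 0 to 0.31 CPM in the libraries labelled CM. Of 12 differentiating spermatogonial genes none was called, with 2.19 as the median log2 fold change. Their sum overlapped WT, at 2964 to 3036 CPM in the libraries labelled CM and 2719 to 3089 CPM in WT. The part of the cells of these lists in the members' levels was not tested. In the test over 4 genotypes Sohlh2 was called at 2.49 ± 0.86 (adjusted p = 0.0377), 1 of 9 tested members beside 37.4% of all genes. That call was lost when WT replicate 2 or 3, any CTCF HET replicate, BORIS KO replicate 1 or 2 or CM replicate 2 was left out (adjusted p = 0.0631 to 0.09), and the departure was 1.34 without CM replicate 2 and 0.27 without CM replicates 2 and 3 together.

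In spermatocytes of BORIS KO 4 of 9 tested members were called, beside 57.2% of all genes. Kit was lower, at 0.241, 0.256 and 0.252 CPM against 0.607 and 0.687 CPM in WT (-1.37 ± 0.26, adjusted p = 0.000773), and Gfra1 was lower at 1.79, 1.91 and 2.23 CPM against 2.92 and 2.52 (-0.47 ± 0.15, 0.0187). Uchl1 was higher at 2.96, 2.62 and 3.07 CPM against 1.2 and 1.42 (1.13 ± 0.16, adjusted p = 6.3e-05). Nanos3 was higher at 18, 43 and 23 counts against 5 and 12 (1.64 ± 0.45, adjusted p = 0.00808), but it passed the filter on low counts only through the BORIS KO libraries, so its call is no support for a difference. No BORIS KO library overlapped WT in these 4 genes, and the direction of Uchl1 was that of round spermatids. Such separation was common, as over all genes tested 37.1% lay wholly above WT and 35.8% wholly below. None of the 4 was called in the fit over all 4 genotypes (adjusted p = 0.441 to 0.825), and those of Gfra1 and Nanos3 were lost without WT replicate 1 (0.185 and 0.12) and that of Gfra1 also without BORIS KO replicate 2 (0.0626).

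In the spermatocyte libraries labelled CM Dmrt1 was at 2.39, 4.04 and 4.62 CPM against 0.468 and 0.483 CPM in WT, 0.371, 1.04 and 0.338 CPM in CTCF HET and 0.252 to 0.415 CPM in BORIS KO. The CM libraries were above all others. It was the 1 of 8 tested members called against WT, at 2.98 ± 0.42 (7.87-fold, adjusted p = 0.0488), beside 0.604% of all genes, and it was also the 1 member called in the test over 4 genotypes (3.27 ± 0.90, adjusted p = 0.0471; 7.44% of all genes called). Sohlh2 (1.22, 0.52 and 0.849 CPM against 0.0885 and 0.165), Sall4 (0.627, 1.03 and 0.404 against 0.152 and 0.153) and Zbtb16 (1.74, 1.78 and 1.13 against 0.556 and 0.649) were also above WT in every library, as were 23.9% of all genes tested. They were not called by edgeR (adjusted p = 0.0797, 0.123 and 0.0972) but were by DESeq2. Sohlh2 passed the filter on low counts only through the libraries labelled CM, so its DESeq2 call is no support for a difference. Kit, at 0.638, 0.792 and 1.27 CPM, overlapped WT (0.50 ± 0.51). The Leydig gene Cyp17a1 was at 0.877 to 2.13 CPM in these libraries and 0.127 to 0.266 CPM in WT, and the summed Sertoli markers at 8.72 to 14.3 and 13.4 to 13.7 CPM. The undifferentiated spermatogonial genes summed to 314 to 352 CPM against 204 to 218 CPM in WT, and the round spermatid markers to 273 to 318 against 357 to 389 CPM. None of the 13 and 11 genes tested in these lists was called, with median log2 fold changes of 1.12 and 0.79. The part of these cells in the level of Dmrt1 was not tested. The call of Dmrt1 against WT was lost without WT replicate 1 or 2 (adjusted p = 0.243 and 0.436) or CM replicate 2 or 3 (0.179 and 0.151), with a log2 fold change of 2.79 to 2.98 in these fits. The departure over 4 genotypes lost its call without either WT replicate, any BORIS KO replicate or CM replicate 2 or 3 (3.07 to 3.53, adjusted p = 0.0857 to 0.229). In the spermatocyte libraries labelled CTCF HET edgeR and DESeq2 called none of 6 tested members, none had an unadjusted p under 0.05, and edgeR called 15.5% of all genes; these libraries had 0 counts for Sohlh1 and Nanos3 in all 3 and for Kit in 1.

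**Figure D4:**
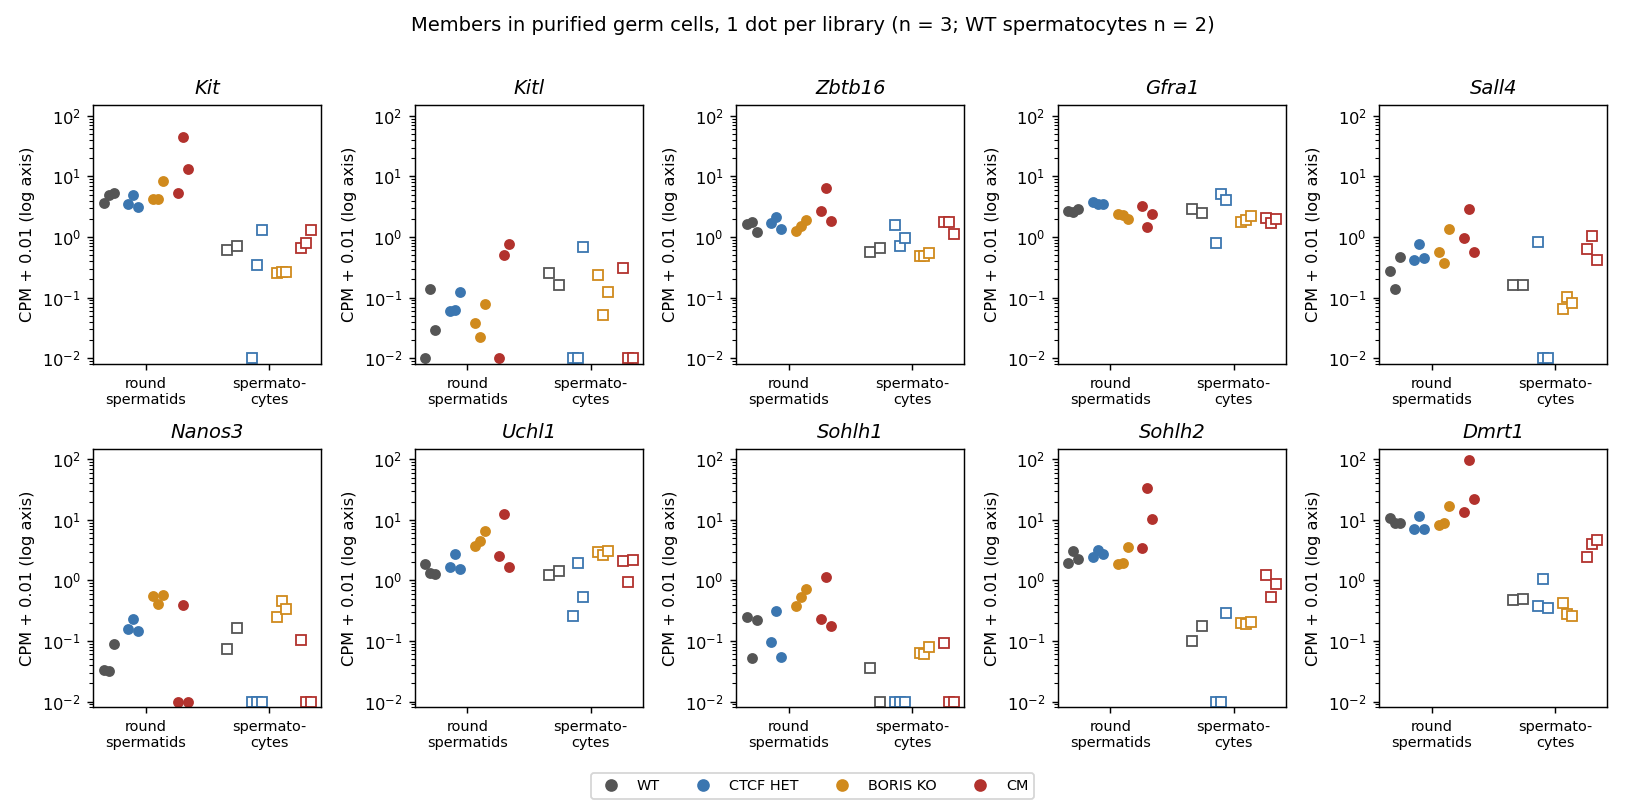
Members in round spermatids (filled circles) and spermatocytes (open squares), CPM + 0.01 on a log axis, 1 point per library and coloured by genotype. Kit and Dmrt1 are higher in round spermatids than in spermatocytes. The second CM round spermatid library is the highest for 7 members with Dmrt1 at 96.5 CPM, and points at 0.01 are libraries with 0 counts.

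The genes whose pattern over the 12 genotype and cell type means was most like that of Kit were looked for among 15920 genes. By the root mean square difference of centred log2(CPM + 1) profiles they were Ocrl (0.31), Trank1 (0.32), Xiap (0.33), Cul7 (0.33) and Tbl1x (0.34), beside a median of 1.20 over all genes. All 5 were called higher in CM whole testis, at log2 fold changes from 1.49 to 2.42, a contrast that is part of the pattern. Of the other members Sohlh2 (0.64), Dmrt1 (0.68) and Zbtb16 (0.72) were the nearest to Kit, and Gfra1 (1.22) the farthest of those ranked.

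The loci of the members were then read in the peak lists (mm9, 1-based), which have no replicates, so no error can be given. A peak was placed at a member when it touched the gene or 2 kb on either side, and near a start when it came within 2 kb of an annotated transcription start. The 7 lists had 55 peaks at 8 of the 10 members; Nanos3 and Sohlh1 had none. WT CTCF had 15 peaks at these 8 genes and BORIS had 3, at Kit, Zbtb16 and Sall4, each overlapping a CTCF peak. Near a start 6 of 10 members had a WT CTCF peak, 3 a BORIS peak and 0 a CM CTCF peak, where over all 22380 protein-coding genes the shares were 30.8%, 15.1% and 13.2%.

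The CTCF and BORIS site of Kit lies in intron 1, and its sequence is shown because Kit differed most and both factors are listed there. The CTCF summit was 833 bases and the BORIS summit 886 bases after the gene's start. The CTCF peak had a height of 132, with 15.4% of WT CTCF peaks as low or lower, and the BORIS peak a height of 124, with 69.1% of BORIS peaks as low or lower. The stretch is chr5:75971674-75971973 on the plus strand of NCBIM37, and the capitals mark the CTCF core CCANNAGNNGGC, here on the minus strand. That match lies inside the CTCF peak, outside the BORIS peak and outside the 201 bases around the CTCF summit. The paper maps clustered CTCF motifs at this site and reports binding of CTCF and BORIS in gel shifts. The fragment used there, judged by its primers, ends before the capitals, so the marked core is not the site bound in that assay. The core is a strict pattern, and its absence does not show that a site lacks a CTCF motif.
Kit intron 1: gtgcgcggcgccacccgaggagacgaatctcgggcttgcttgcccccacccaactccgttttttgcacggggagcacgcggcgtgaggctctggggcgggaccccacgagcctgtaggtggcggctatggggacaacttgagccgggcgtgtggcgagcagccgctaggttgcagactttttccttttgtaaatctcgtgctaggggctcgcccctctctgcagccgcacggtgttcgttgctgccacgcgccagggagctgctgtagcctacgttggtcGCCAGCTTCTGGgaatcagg
No CM CTCF peak overlapped the WT CTCF peak of Kit. In CM an H3K4me3 peak (score 71.59) covered 36 to 1120 bases after the start, over this site, where WT had none; H3K4me3 further into intron 1 was listed in both genotypes, with scores of 111.12 in WT and 103.38 in CM. No Pol2 peak was listed at Kit in either genotype, and the gene body beyond intron 1 held no peak of any list.

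Kitl had a WT CTCF peak of height 110 in intron 1, with its summit 922 bases after the start, no BORIS peak and no CM CTCF peak. In CM the start of Kitl carried an H3K4me3 peak (65.52) and 3 Pol2 peaks (55.21, 78.13 and 131.02) that ran to 6522 bases into the gene, and WT had no Pol2 or H3K4me3 peak at Kitl. Zbtb16 had WT CTCF peaks with summits at -10 and -1443 bases from its start, the second shared with BORIS (height 35), neither with a CM CTCF peak, and an H3K4me3 peak at the start in both genotypes. Sall4 had 3 WT CTCF peaks and 1 BORIS peak (height 90), at which CTCF height was 588, and none had a CM CTCF peak. The CTCF summit at this shared site was 2809 bases after the gene's start and 112 bases after a nearer annotated start inside the gene. The sites of Zbtb16 and Sall4 are printed beside that of Kit because they are the other members' sites shared by CTCF and BORIS; no CTCF core lies in these 201 bases around either CTCF summit (NCBIM37, plus strand of chr9:48645393-48645593 and of chr2:168590534-168590734).
Zbtb16 upstream site: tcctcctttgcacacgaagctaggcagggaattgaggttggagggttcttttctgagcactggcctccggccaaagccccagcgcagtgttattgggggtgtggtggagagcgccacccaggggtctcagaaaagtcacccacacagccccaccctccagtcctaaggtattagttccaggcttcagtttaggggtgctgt
Sall4 start site: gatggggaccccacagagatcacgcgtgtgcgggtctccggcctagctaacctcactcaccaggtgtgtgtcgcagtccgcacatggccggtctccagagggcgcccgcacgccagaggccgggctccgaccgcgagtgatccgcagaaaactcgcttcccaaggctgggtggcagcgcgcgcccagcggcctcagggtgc
The core was in the same window of 39.1% of WT CTCF peaks and 31% of BORIS peaks. Over the 300 bases at the start of all protein-coding genes, from 250 before to 50 after, it was in 2.56%, and it was in 0 of the 10 members.

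The only member sites listed for CTCF in both WT and CM lay far from starts, in Gfra1 intron 5 (141957 bases in, WT height 2077, CM height 618) and Dmrt1 intron 4 (74002 bases in, WT height 1408, CM height 295). Both hold the core near the summit. They are printed to set them against the sites above, in NCBIM37 on the plus strand at chr19:58388342-58388542 and chr19:25654010-25654210, with the core in capitals.
Gfra1 intron 5: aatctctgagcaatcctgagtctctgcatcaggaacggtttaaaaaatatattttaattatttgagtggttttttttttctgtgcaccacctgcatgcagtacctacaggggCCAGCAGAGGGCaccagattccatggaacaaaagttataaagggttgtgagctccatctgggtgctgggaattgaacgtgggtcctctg
Dmrt1 intron 4: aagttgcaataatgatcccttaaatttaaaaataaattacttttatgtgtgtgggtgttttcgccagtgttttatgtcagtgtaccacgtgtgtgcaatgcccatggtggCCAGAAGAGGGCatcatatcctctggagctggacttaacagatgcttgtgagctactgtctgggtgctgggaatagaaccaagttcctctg
Of the 15 WT CTCF peaks at members 13 had no CM CTCF peak, including all 9 near a start, where 43.9% of all 34625 WT peaks and 63.7% of those within 2 kb of a start had none. Whether a WT peak was also listed in CM went with its height: with WT peaks put in 4 classes of about equal size, 88.1% of the lowest class (height 177 or less) and 4.79% of the highest had no CM peak. Of the members' 15 peaks 8 were in the lowest class and all 8 had no CM peak. Of 3 in the highest class 1 had none, a further peak in Gfra1 intron 5 with a height of 1654. Heights reached 4391 in the WT list and 968 in the CM list, so a lost site and a weaker list cannot be told apart for low peaks such as that of Kit.

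At the other members Uchl1 had Pol2 and H3K4me3 at its start in both genotypes (Pol2 scores 170.83 in WT and 340.63 in CM) and a CTCF peak at its last exon. Sohlh2 had H3K4me3 at its start in both and Pol2 (61.01) in CM alone. Dmrt1 had H3K4me3 at its start in both, with scores of 74.87 in WT and 171.67 in CM, and a WT CTCF peak of height 106 over the start. Gfra1 had 2 WT CTCF peaks at its starts and no H3K4me3 or Pol2 there. Near a start, WT and CM had Pol2 at 1 and 3 members (39.5% and 46.4% of all protein-coding genes) and H3K4me3 at 5 and 6 (52.2% and 55.9%).

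**Figure D5:**
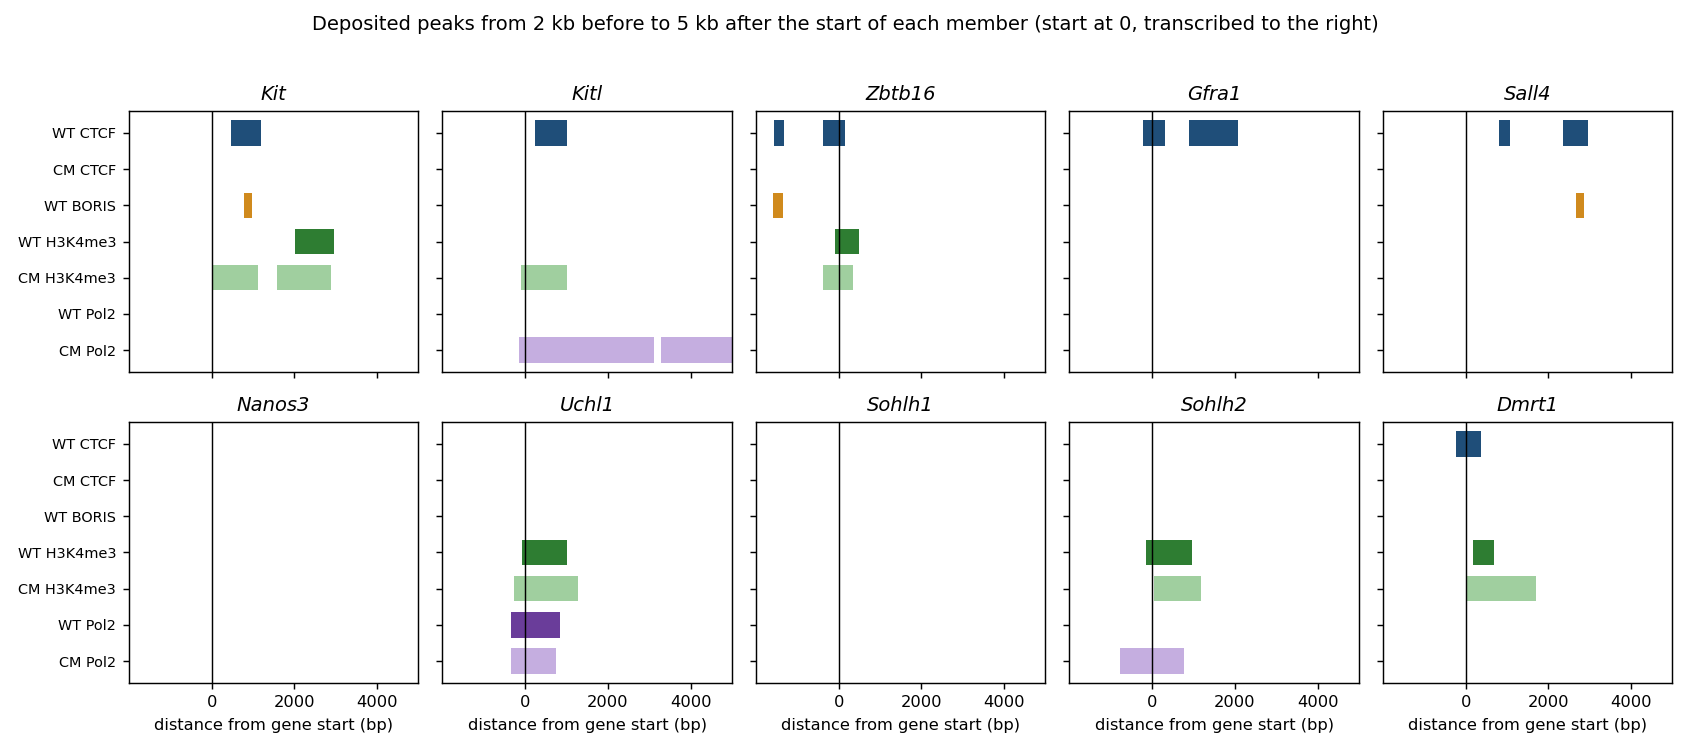
Peaks of the 7 lists from 2 kb before to 5 kb after the start of each member (x axis, bp, transcribed to the right), drawn to scale as bars, 1 row per list and cut at the edges. Kit, Zbtb16 and Sall4 show a BORIS peak over a WT CTCF peak, no member has a CM CTCF peak in this window, and Kit and Kitl have CM H3K4me3 peaks over the site of their WT CTCF peak.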

How the data were processed

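RNA was sequenced from germ cell-enriched whole testis (rRNA-depleted, Ion Proton, TopHat2 and Bowtie2) and from round spermatids and spermatocytes (poly(A), HiSeq, STAR), aligned to mm9. The authors deposited raw counts per gene; the counting tool, annotation and use of strand are not given in the sources used here, so Gfra1, Sall4 and Uchl1, which overlap genes on the other strand, are less certain. Peak lists were deposited with peak height (signal) for CTCF and BORIS and the MACS score for Pol2 and H3K4me3, as the authors' calls on 1 list per antibody and genotype. The members and lists were chosen with earlier results of these data known; all members, up to 4 genes per list with the smallest p called in CM whole testis, and the 5 genes most like Kit are named.

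Counts were fitted with edgeR 4.0.16 (filterByExpr, TMM, quasi-likelihood, robust) on the 2 groups compared, or on 4 genotypes for the departure from additivity, and checked on simulated data; adjusted p is Benjamini-Hochberg over all genes tested. Libraries of one group were never closer than counting noise allows (chi-square per degree of freedom at least 6.77). Same-numbered libraries of different genotypes deviated together in 18 of 18 whole testis pairs (correlation 0.19 to 0.73). They did so in 9 of 18 round spermatid pairs and in 2 of 15 spermatocyte pairs, so the number was read as a pairing only in whole testis. The main fits had no replicate block in any preparation, and the block was run as an alternative. CPM used TMM factors within a preparation. Exon lengths and positions came from GENCODE vM1 (NCBIM37, the same build as mm9), with a length for 21872 of 23284 genes. Alternatives were RLE scaling, DESeq2 1.42.0, no filter on low counts, a single fit of the 4 genotypes, a replicate block, leaving out each library, thresholds that add a fold change above 2, other peak windows, overlaps and heights, and transcript length. The sequence of 1 further peak at a member is not reported here.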

Additional observations from a re-analysis of the deposited data

Results flagged for a closer look

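In 2 cases a member's change in the libraries labelled CM differed from the sum of the changes in the single mutants by edgeR's quasi-likelihood test over 4 genotypes. Sohlh2 in round spermatids departed by 2.49 on the log2 scale (adjusted p = 0.0377), in a comparison that called 37.4% of all genes. It was higher than every WT library in 3 of 3 libraries, as were 12.3% of all genes tested against WT. Dmrt1 in spermatocytes departed by 3.27 (adjusted p = 0.0471), where 7.44% of all genes were called. It was higher than WT in 3 of 3 libraries, as were 23.9% of all genes tested against WT. Both departures lose their call when single libraries are left out, and the round spermatid libraries labelled CM differ from one another more than those of any other genotype.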

How the results depend on the processing

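Log2 fold changes were recomputed only for members with an unadjusted p under 0.05 in the main fit. None of these reversed its direction under any alternative run, and members with estimates near 0 were not checked for this. Of the recomputed counts of members and peaks, 65 moved and 164 stayed near the main value. Of the log2 fold changes recomputed, 385 stayed on their side of the threshold, 64 lost a call and 36 gained one. At an adjusted p under 0.001 with a fold change above 2, 0 members were called in CM against WT in whole testis, in CM against CTCF HET, in CM against WT in spermatocytes and in both tests of departure in purified cells, 2 in BORIS KO spermatocytes and 3 between WT round spermatids and spermatocytes. DESeq2 called 1 member in BORIS KO whole testis, 2 in CM against BORIS KO, 3 in CM round spermatids, 4 in CM spermatocytes and 3 in the round spermatid departure. The fit with the replicate block called 1 in BORIS KO whole testis, 2 in CM against BORIS KO, 5 in CM against CTCF HET and 0 in either departure; in whole testis it ended no call, and in purified cells the samples share only a number. One fit of all genotypes called 0 in BORIS KO round spermatids, 4 in CM round spermatids and 0 in BORIS KO spermatocytes. RLE scaling, and no filter on low counts, left 0 in the spermatocyte departure.

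Leaving out 1 library at a time gave 0 to 3 members called in CM against WT and in CM against BORIS KO in whole testis, 0 to 4 in CM against CTCF HET, 0 to 3 in CM round spermatids, 0 to 1 in CTCF HET and in CM spermatocytes, 2 to 6 in BORIS KO spermatocytes and 3 to 6 between the WT cell types. The departures ranged from 0 to 3 in round spermatids and from 0 to 2 in spermatocytes. Where an arm was left with 1 sample it was assumed to vary like the others. Without CM round spermatid replicates 2 and 3 together, chosen after seeing the data, the departure called 2, Nanos3 and Uchl1, and not Sohlh2. With only the upper 50% of peaks, members with a peak near a start were 1 for WT CTCF, 1 for CM Pol2, 2 for WT H3K4me3 and 1 for CM H3K4me3, and 2 of 4 WT CTCF peaks had no CM peak. A 5 kb window gave 1 member with a CM CTCF peak, Sohlh1. The cause of these changes was not tested. Members under 1 CPM rest on few counts, and the peak lists carry no replicate error.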
